A study of Mus musculus with 13 samples.

Results

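The genes of the RANK, CD40 and lymphotoxin pathway were followed in bulk RNA-seq of CD45- thymic stroma, the nonhematopoietic cells of the thymus, at steady state and after total body irradiation (TBI). The members are 10 genes chosen by name and matched by mouse symbol to the identifiers of the count table, out of 53379 genes listed. They are the ligands Tnfsf11 (RANKL), Lta and Ltb, the receptors Tnfrsf11a (RANK), Cd40 and Ltbr, the decoy receptor Tnfrsf11b (osteoprotegerin), the adaptor Traf3, and the transcription factors Relb and Nfkb2. The rule names them without a measured value, although they were proposed with earlier results of these data known, and all 10 were among the 19984 genes that passed the filter on low counts.

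RANK, CD40 and the lymphotoxin β receptor are TNF receptor superfamily members through which thymocytes and other lymphoid cells act on medullary thymic epithelial cells (mTECs), the cells that present tissue antigens to developing T cells. Their ligation removes TRAF3 from a complex that otherwise destroys the kinase NIK, and NIK then drives the processing of the Nfkb2 product p100 to p52, which pairs with RelB in the noncanonical NF-κB pathway. Mice without RelB, NIK or the receptors have medullary defects.

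All mice were 2-month-old C57BL/6 wild type animals. There were 4 libraries at steady state, and 3 libraries each from day 1, day 4 and day 7 after sublethal TBI. The count table names the 4 steady-state columns as phosphate-buffered saline (PBS) controls, 1 of day 1 (replicate 2), 1 of day 4 (replicate 2) and 2 of day 7 (replicates 1 and 2), and steady-state values are given below in that order. The labels do not say which libraries came from separate mice, the study's methods call the bulk replicates biological, and p-values here measure the spread between these libraries.

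Total counts ran from 15721866 to 52056896 per library. Each column name ends in a tag of unstated meaning. Of the 13 libraries, 5 have a tag that starts with k3, 3 have one that starts with kk, and 5 have another start. None of those last 5 is from day 7 after TBI. Ptprc, which encodes CD45 and should be absent after the sort, ran from 4.07 CPM (counts per 1e6 of the normalized library size) at day 4 to 606 CPM in replicate 2 of day 7. In 3 libraries, day 1 replicate 1 and day 4 replicates 2 and 3, 13.1% of the 19984 genes had their 3 lowest values, and the share of counts in ribosomal protein genes was 1.01% to 1.57%, against 0.458% to 0.962% in the other 10 libraries. Of the listed cell types, fibroblast markers summed to between 17029 and 114791 CPM at steady state. The mTEC, cortical epithelial (cTEC) and endothelial markers were all detected in every library. Since these are bulk samples, fewer cells of a type and less RNA per cell cannot be told apart.

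Upstream sequences are shown for the 3 members whose promoter window held a match to the κB consensus, the site that NF-κB dimers bind, because Ltb was the member that changed between conditions and Nfkb2 and Traf3 followed each other across libraries. The windows are the 250 bases before each RefSeq start of the GRCm38.p6 build, and 7 of the 10 members matched an entry, with 9 windows. Tnfrsf11b, Cd40 and Relb had no entry. The κB consensus was searched on both strands. It was found in 5 of the 9 windows, from 3 of the 7 members. Of the 32851 windows of all genes, 3.90% held it. Nfkb2 had several windows, each with a match, and only the first of these is shown. The others lie within the gene. The sequences below end before the first base of the gene in the GRCm38 annotation, which takes 68 bases from the window of Ltb, and capitals mark the matches.
Ltb, chr17:35194257-35194438, plus strand: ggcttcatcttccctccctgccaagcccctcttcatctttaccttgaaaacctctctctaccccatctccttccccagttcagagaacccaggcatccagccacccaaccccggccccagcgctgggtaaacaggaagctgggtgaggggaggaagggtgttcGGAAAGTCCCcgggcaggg
Nfkb2, chr19:46304487-46304736, plus strand: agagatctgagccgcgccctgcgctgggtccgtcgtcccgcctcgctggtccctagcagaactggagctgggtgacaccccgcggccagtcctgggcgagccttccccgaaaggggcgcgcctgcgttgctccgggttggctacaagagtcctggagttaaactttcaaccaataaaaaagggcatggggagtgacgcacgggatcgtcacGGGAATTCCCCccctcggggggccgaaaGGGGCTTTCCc
Traf3, chr12:111166120-111166369, plus strand: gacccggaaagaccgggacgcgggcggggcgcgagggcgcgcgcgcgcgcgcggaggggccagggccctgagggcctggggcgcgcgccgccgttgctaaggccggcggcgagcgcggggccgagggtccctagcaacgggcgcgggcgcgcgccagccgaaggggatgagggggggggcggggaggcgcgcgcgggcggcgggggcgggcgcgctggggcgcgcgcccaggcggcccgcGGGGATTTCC
The match in Ltb starts 87 bases before the RefSeq start. In Nfkb2 a pair of overlapping matches starts at 39 and 38 bases and another match at 11 bases before the start, and in Traf3 the match starts at 10 bases before it. A match is a stretch of letters and was not tested for binding.

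Levels of different members were compared per length, as RPKM over the deposited exonic length. At steady state Ltbr was the highest, at 48.7 ± 7.45 RPKM (mean ± SD, n = 4 libraries). Tnfrsf11b and Nfkb2 followed at 36.2 ± 3.13 and 35.7 ± 11.9 RPKM, and Relb at 18.3 ± 5.74 RPKM. Traf3 had 5.88 ± 1.54 RPKM and Ltb 5.81 ± 4.00 RPKM, while Tnfrsf11a and Cd40 had 3.42 ± 3.19 and 3.41 ± 2.94 RPKM. The RANK and lymphotoxin α ligands were lowest, with 1.02 ± 0.849 RPKM for Tnfsf11 and 0.632 ± 0.413 RPKM for Lta. The libraries of Ltbr did not overlap those of Tnfrsf11b, nor those of Relb the ones of Traf3. Every other pair of neighbours in this order overlapped.

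**Figure D1:**
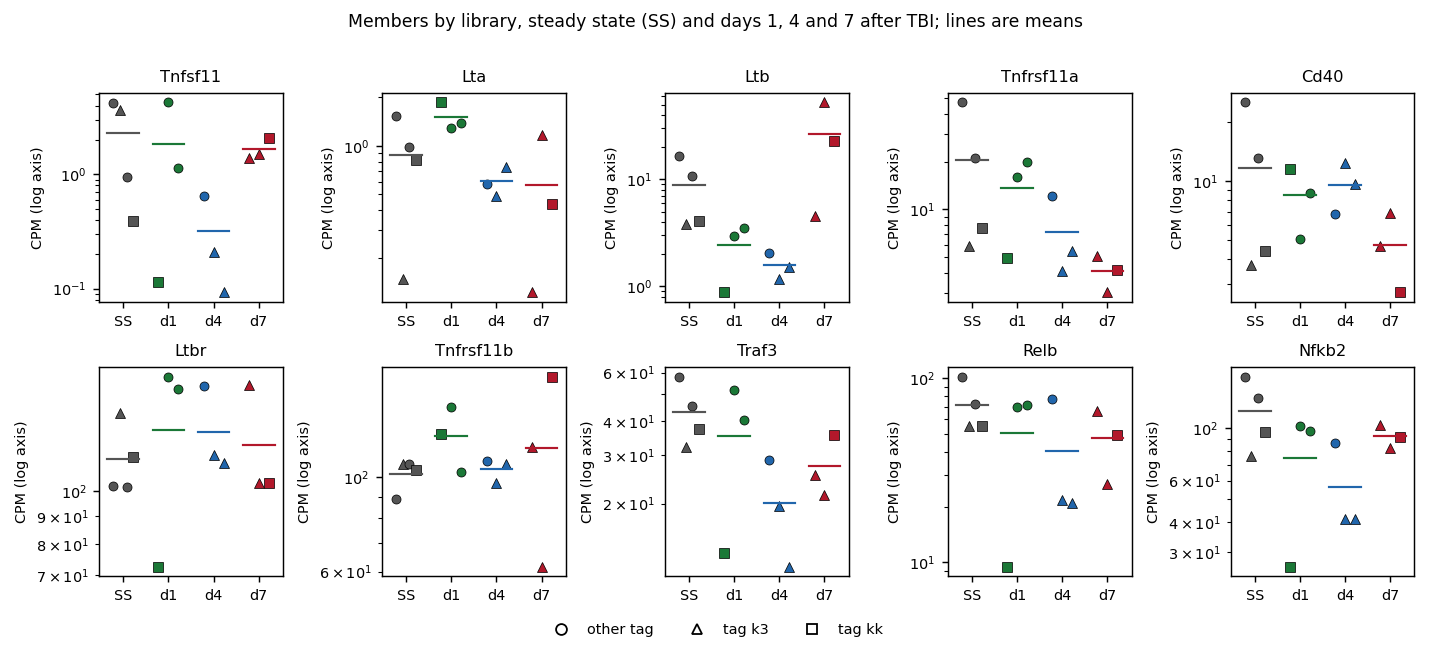
CPM on a log axis for the 10 members, with each point a library, each line the mean of a condition, and the marker shape the start of the library's column tag. Conditions overlap in most panels, and Ltb has its highest values (22.9 and 52.6 CPM) in 2 libraries of day 7. Tnfrsf11a and Relb are highest in the 5 libraries with a tag that starts with neither k3 nor kk.

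Against steady state, no member passed the threshold (adjusted p of 0.05 or less over all genes tested, edgeR's quasi-likelihood test) at any day. At day 1, 0 of 10 members and 2.35% of the genes tested passed. At day 4 these were 0 of 10 members and 0.290% of the genes, and at day 7 they were 0 of 10 members and 0.00500% of the genes, which is 1 gene. At an unadjusted p under 0.05 there was 1 member at day 1 (Ltb), 5 at day 4 (Tnfrsf11a, Tnfsf11, Ltb, Nfkb2 and Traf3) and 2 at day 7 (Tnfrsf11a and Ltb), beside 17.2%, 13.02% and 13.5% of all genes. DESeq2 called 0 members at day 1, Ltb at day 4 and Tnfrsf11a at day 7. Over all genes it called 1354 of 18759, 620 of 21683 and 1093 of 23151. The median log2 fold change of the members was -0.40, -0.95 and -0.53 at days 1, 4 and 7, where that of all genes was -0.10, -0.13 and 0.00. All 3 comparisons use the same 4 steady-state libraries.

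**Figure D2:**
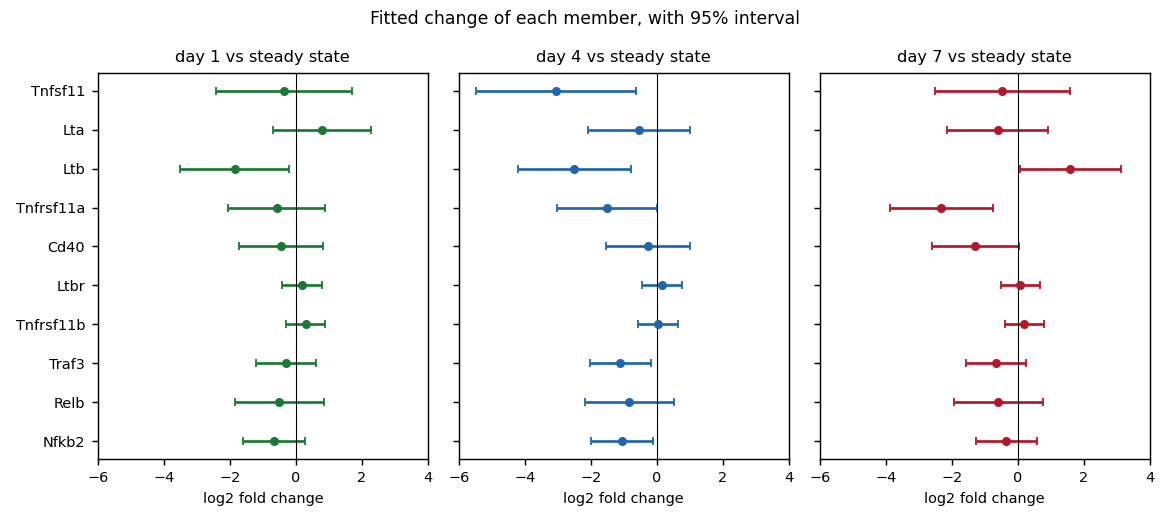
Fitted log2 fold change of each member against steady state for the 3 days after TBI (points) with 95% intervals not adjusted for the number of genes (bars). The intervals of Ltbr and Tnfrsf11b are the narrowest and include 0 at each day, and the interval of Tnfsf11 at day 4, from -5.47 to -0.64, is the widest.

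Between the days after TBI, 0 of 10 members and 1.43% of the genes tested passed between day 4 and day 1. Tnfsf11 was the 1 member at an unadjusted p under 0.05, beside 13.7% of all genes. DESeq2 called 0 members, beside 935 of 20218 genes. The log2 fold change from day 1 to day 4 was below 0 in 9 of 10 members, with a median of -0.53, where that of all genes was -0.10. From day 1 to day 7, 1 of 10 members (Ltb) passed, beside 8.13% of the genes. From day 4 to day 7 it was again 1 of 10 members (Ltb), beside 3.90% of the genes. In the test for a difference between any of the 4 conditions, Ltb was the 1 member of 10 to pass (adjusted p = 0.0186), beside 6.66% of the genes. The median log2 fold change of the members from day 1 to day 7 was -0.11, with 0.05 for all genes, and from day 4 to day 7 it was 0.21, with 0.11 for all genes. At an unadjusted p under 0.05 there were 2 of 10 members from day 1 to day 7 (Tnfrsf11a and Ltb), beside 23.9% of all genes, and 2 of 10 from day 4 to day 7 (Tnfsf11 and Ltb), beside 18.7%.

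Ltb (ENSMUSG00000024399, chromosome 17, 35194439 to 35196320, plus strand) encodes lymphotoxin β, which anchors lymphotoxin α at the cell surface in the complex that binds the lymphotoxin β receptor. It had 16.5, 3.85, 10.8 and 4.07 CPM at steady state, 0.877, 2.93 and 3.54 CPM at day 1, 2.07, 1.16 and 1.52 CPM at day 4, and 4.51, 52.6 and 22.9 CPM at day 7. All libraries of days 1 and 4 were below all of steady state and day 7, and replicates 2 and 3 of day 7 were above every other library. From day 1 to day 7 Ltb rose by a log2 fold change of 3.44 ± 0.84 (SE, adjusted p = 0.0262). From day 4 to day 7 it rose by 4.10 ± 0.87 (log2, adjusted p = 0.0246). Relative to steady state, the log2 difference was -1.85 ± 0.76 at day 1 (adjusted p = 0.239), -2.50 ± 0.79 at day 4 (adjusted p = 0.237) and 1.59 ± 0.71 at day 7 (adjusted p = 0.343), none of which passed.

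Both calls of Ltb changed with single libraries. Leaving out any 1 of day 1 replicates 1, 2 or 3 or day 7 replicates 2 or 3 ended the call from day 1, and the log2 fold change then lay between 2.45 and 3.82. Leaving out any 1 of day 4 replicates 1, 2 or 3 or day 7 replicates 2 or 3 ended the call from day 4, with a log2 fold change between 3.04 and 4.18. Without both replicates 2 and 3, day 7 is the 1 library with the least Ltb of that day, and its spread is assumed to be that of the other groups. The log2 fold change was then 0.91 from day 1, 1.52 from day 4 and -0.92 against steady state. In that setting 0 of 22144 genes passed from day 1 to day 7 and 17 from day 4 to day 7, so no call is read from it.

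Transcripts of thymocytes, which also express Ltb, moved with it. The 14 thymocyte markers summed to 267 to 876 CPM at steady state, 127 to 164 CPM at day 1, 27.4 to 42.8 CPM at day 4 and 239 to 5587 CPM at day 7, and none was at 0 in any library. All 14 passed as higher from day 1 to day 7 and from day 4 to day 7, beside 8.13% and 3.90% of all genes passing. At day 4 against steady state 4 of 14 (Cd4, Cd8a, Cd8b1 and Rag1) passed as lower, beside 0.290% of all genes. From day 1 to day 4 it was 3 of 14 (Cd8a, Cd8b1 and Rag1), beside 1.43%. Across the 13 libraries the log2 CPM of Ltb had a Pearson's r of 0.91 with the sum of these markers, and 0.81 after the mean of each condition was removed. Within conditions r was also 0.83 with the endothelial sum and 0.75 with the B cell sum. This is a description over libraries that share the same RNA and depth.

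Ptprc was at 119, 24.0, 105 and 38.3 CPM at steady state, 14.99, 12.7 and 12.9 CPM at day 1, 4.07, 4.37 and 4.54 CPM at day 4, and 21.6, 606 and 224 CPM at day 7. The libraries with most Ltb were those with most Ptprc. The ratio of Ltb to Ptprc counts was 0.102 to 0.160 at steady state, 0.0585 to 0.274 at day 1, 0.265 to 0.508 at day 4 and 0.0867 to 0.209 at day 7. The part of thymocyte RNA in the change of Ltb was not tested. By the highest Pearson's r of log2 CPM across the 13 libraries, among genes with a mean of at least 5 CPM, the genes most like Ltb were Arhgap9 (r = 0.99), Camk1d (0.98) and the T cell receptor kinase Zap70 (0.98).

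**Figure D3:**
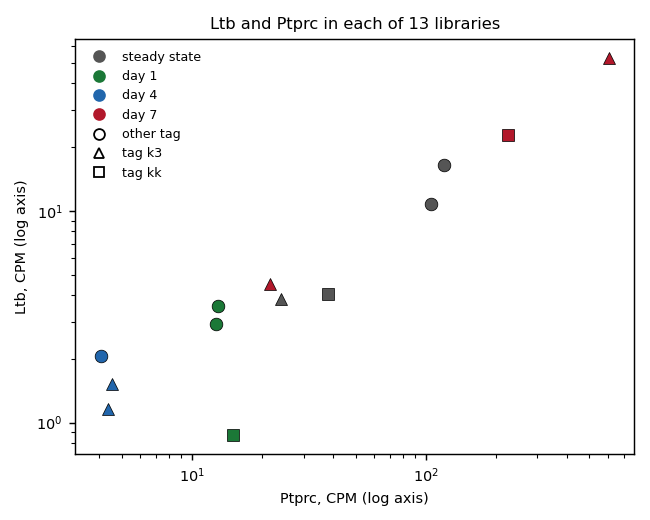
Ltb against Ptprc in each of the 13 libraries, both in CPM on log axes, with colour for the condition and marker shape for the start of the column tag. The libraries of day 4 lie at the low end of Ptprc (4.07 to 4.54 CPM) and replicates 3 and 2 of day 7 at the high end (224 and 606 CPM), with Ltb low and high in the same libraries.

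Tnfsf11 (ENSMUSG00000022015, chromosome 14, 78277445 to 78308043, minus strand) encodes RANKL, the ligand of RANK and a major inducer of Aire-expressing mTECs. It had 4.19, 3.63, 0.947 and 0.387 CPM at steady state, 0.113, 4.27 and 1.13 CPM at day 1, 0.645, 0.211 and 0.0926 CPM at day 4, and 1.39, 1.496 and 2.09 CPM at day 7. These are low counts, from 4 to 191 per library. The libraries of day 4 overlapped those of steady state and of day 1, and lay below all libraries of day 7. Relative to steady state, the fitted log2 difference was -0.35 ± 0.95 at day 1, -3.05 ± 1.12 at day 4 (adjusted p = 0.294) and -0.47 ± 0.95 at day 7. Without its 3 lowest libraries, day 1 replicate 1 and day 4 replicates 2 and 3, the value at day 4, then of 1 library, was -1.82 and that at day 1 was 0.25. With the tag as a covariate the value at day 7 was 0.62.

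Lta (ENSMUSG00000024402, chromosome 17, 35203165 to 35205351, minus strand) encodes lymphotoxin α and lies 6845 bases from the end of Ltb, with Tnf between them. It had 1.54, 0.150, 0.990 and 0.823 CPM at steady state, 1.87, 1.30 and 1.38 CPM at day 1, 0.581, 0.492 and 0.740 CPM at day 4, and 0.123, 1.17 and 0.434 CPM at day 7. All libraries of day 1 were above those of days 4 and 7, and steady state spanned most of the range. The log2 fold changes against steady state were 0.79 ± 0.69, -0.53 ± 0.72 and -0.60 ± 0.71 (adjusted p from 0.591 to 0.853). Unlike Ltb, Lta was not highest in the libraries of day 7 with most Ptprc. Within conditions its r was 0.90 with the B cell sum, 0.87 with that of macrophages and dendritic cells and 0.82 with that of thymocytes, and across all 13 libraries these were 0.69, 0.58 and 0.10.

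Tnfrsf11a (ENSMUSG00000026321, chromosome 1, 105780718 to 105847981, plus strand) encodes RANK. It had 47.2, 5.90, 21.2 and 7.65 CPM at steady state, 4.98, 16.1 and 19.98 CPM at day 1, 12.1, 4.11 and 5.50 CPM at day 4, and 5.13, 3.01 and 4.15 CPM at day 7. All 3 libraries of day 7 were below all 4 of steady state, and the other days overlapped with it. The log2 fold change was -0.58 ± 0.67 at day 1, -1.51 ± 0.70 at day 4 and -2.32 ± 0.72 at day 7 (adjusted p = 0.702, 0.383 and 0.159). At day 7 it passed under DESeq2 (adjusted p = 0.0182) and without the filter on low counts (adjusted p = 0.0410), where these settings called 1093 and 627 genes in all and 1 gene was called as reported. With a library left out the value ran from -1.94 to -0.59 at day 4 and from -2.63 to -1.50 at day 7. The smallest change at both days was without the PBS control of day 1, which had the most Tnfrsf11a.

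The level of Tnfrsf11a also divided by the tag in the column names. It was 12.1 to 47.2 CPM in the 5 libraries whose tag starts with neither k3 nor kk, and 3.01 to 7.65 CPM in the other 8, with no overlap. Among those 8, steady state had 5.90 and 7.65 CPM, day 1 had 4.98 CPM, day 4 had 4.11 and 5.50 CPM, and the 3 libraries of day 7 had 3.01 to 5.13 CPM. With the tag as a covariate the log2 fold change at day 7 was -0.94 (adjusted p = 0.497). This division was not particular to Tnfrsf11a. Relb had 69.5 to 102 CPM in the same 5 libraries and 9.47 to 66.5 CPM in the other 8. Of the listed mTEC markers, Epcam (99.8 to 155 against 14.0 to 40.1 CPM) and Fezf2 (21.8 to 91.3 against 4.61 to 14.5 CPM) also divided. The others overlapped, among them Krt5 (338 to 1092 against 104 to 1294 CPM) and Aire (3.87 to 59.0 against 0.841 to 6.78 CPM). The share of all genes that divide by tag was not computed. The genes most like Tnfrsf11a across the 13 libraries were Slc24a4 (r = 0.99), Fam89a (0.97) and Slc9a7 (0.96).

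Cd40 (ENSMUSG00000017652, chromosome 2, 165055627 to 165072948, plus strand) encodes the receptor of CD40 ligand, which acts beside RANK on the growth of the medulla. It had 25.2, 3.73, 13.1 and 4.41 CPM at steady state, 11.6, 5.06 and 8.71 CPM at day 1, 6.78, 12.3 and 9.72 CPM at day 4, and 4.68, 6.86 and 2.71 CPM at day 7. Steady state alone spanned almost all of these values. The log2 fold changes were -0.46 ± 0.59, -0.27 ± 0.59 and -1.29 ± 0.61 (adjusted p from 0.384 to 0.854), and without the PBS control of day 1 those at days 1 and 4 were 0.31 and 0.54. The summed level of the 11 mTEC markers was 448 to 1360 CPM at steady state, 934 to 1323 CPM at day 1, 1349 to 1726 CPM at day 4 and 271 to 510 CPM at day 7. Krt5 alone was at 160 to 524 CPM at steady state and at 919 to 1294 CPM at day 4. The median log2 fold change of the 11 markers at day 4 against steady state was -0.18. With the sum of all 11 markers, Cd40 had an r of 0.74 across the 13 libraries and of 0.87 within conditions. Tnfrsf11a had 0.47 and 0.69. With other sums, Cd40 had an r of -0.80 and -0.95 with the fibroblast sum and of 0.68 and 0.76 with the B cell sum, and Tnfrsf11a had 0.61 and 0.75 with the endothelial sum.

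Of those mTEC markers, 0 of 11 passed against steady state. From day 1 to day 7, 4 of 11 (Krt14, Cldn4, Ccl21a and Cd80) fell, where 8.13% of all genes passed. From day 4 to day 7, 2 of 11 (Krt5 and Ccl21a) fell, where 3.90% of all genes passed. The part of mTEC RNA in the values of Cd40 and Tnfrsf11a was not tested. Among the genes most like Cd40 were S100a14 (r = 0.96) and Il20rb (0.94).

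Ltbr (ENSMUSG00000030339, chromosome 6, 125306571 to 125313885, minus strand) encodes the lymphotoxin β receptor, which is carried by many stromal cells. It had 102, 139, 102 and 116 CPM at steady state, 72.6, 162 and 154 CPM at day 1, 156, 117 and 112 CPM at day 4, and 157, 104 and 104 CPM at day 7. Every day overlapped with steady state. Fitted log2 fold changes were 0.18 ± 0.28, 0.16 ± 0.28 and 0.08 ± 0.28, with 95% intervals from -0.42 to 0.78, from -0.44 to 0.77 and from -0.52 to 0.69.

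Tnfrsf11b (ENSMUSG00000063727, chromosome 15, 54250619 to 54278484, minus strand) encodes osteoprotegerin, a secreted decoy that binds RANKL. It had 88.9, 108, 107 and 104 CPM at steady state, 127, 146 and 103 CPM at day 1, 109, 97.03 and 107 CPM at day 4, and 118, 61.6 and 173 CPM at day 7. The libraries of day 7 held both the lowest and the highest value of all 13. The log2 fold changes were 0.30 ± 0.28, 0.04 ± 0.28 and 0.20 ± 0.28, with 95% intervals from -0.30 to 0.89, from -0.56 to 0.63 and from -0.39 to 0.80.

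The ligand was set against its decoy within each library. There were 47.1, 33.7, 8.82 and 3.73 Tnfsf11 counts per 1000 Tnfrsf11b counts at steady state, 0.893, 29.2 and 10.97 at day 1, 5.91, 2.17 and 0.863 at day 4, and 11.9, 24.3 and 12.1 at day 7. The steady-state libraries spread over most of the range, and all 3 of day 7 lay within it and above all 3 of day 4. The mean log2 ratio of Tnfsf11 to Tnfrsf11b (0.5 added to each count) differed from steady state by -1.16 at day 1, -2.70 at day 4 and -0.01 at day 7. In the two-sided exact permutation test p was 0.514, 0.114 and 0.971. With 4 libraries against 3 this exact test cannot go below p = 0.0571.

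**Figure D4:**
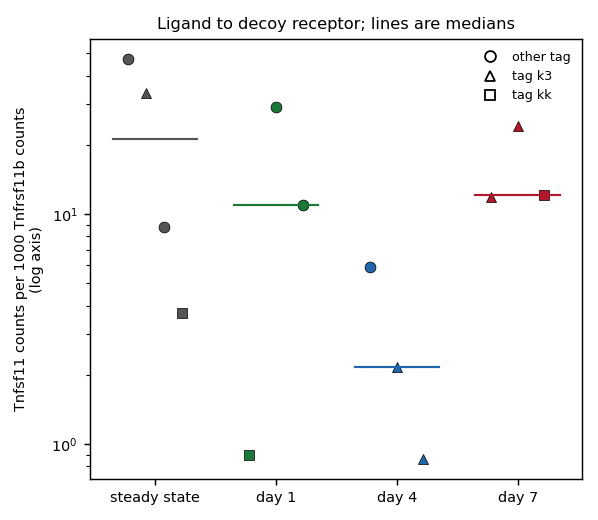
Tnfsf11 counts per 1000 Tnfrsf11b counts in each library on a log axis, by condition, with lines at the medians and marker shape for the start of the column tag. Steady state runs from 3.73 to 47.1, day 4 from 0.863 to 5.91, and day 7 from 11.9 to 24.3.

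Traf3 (ENSMUSG00000021277, chromosome 12, 111166370 to 111267153, plus strand) encodes the adaptor that holds the noncanonical pathway in check. It had 58.0, 32.1, 45.4 and 37.3 CPM at steady state, 13.2, 51.9 and 40.4 CPM at day 1, 28.9, 19.7 and 11.8 CPM at day 4, and 25.4, 21.6 and 35.4 CPM at day 7. All libraries of day 4 were below all of steady state, and days 1 and 7 overlapped with it. Fitted log2 fold changes were -0.30 ± 0.42, -1.11 ± 0.43 and -0.65 ± 0.42 (adjusted p = 0.763, 0.321 and 0.604).

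Relb (ENSMUSG00000002983, chromosome 7, 19606217 to 19629438, minus strand) encodes the partner of p52. It had 102, 55.1, 72.6 and 55.0 CPM at steady state, 9.47, 69.5 and 72.0 CPM at day 1, 77.3, 21.8 and 21.1 CPM at day 4, and 66.5, 26.8 and 49.1 CPM at day 7. Each day after TBI overlapped with steady state, and replicate 1 of day 1 was far below its other replicates. Relb also divided by the column tag, as given above. On the log2 scale the changes were -0.50 ± 0.62, -0.83 ± 0.63 and -0.59 ± 0.62 (adjusted p from 0.549 to 0.826).

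Nfkb2 (ENSMUSG00000025225, chromosome 19, 46304737 to 46312090, plus strand) encodes p100, the precursor of p52, and 0.122% of its exonic bases overlap Psd. It had 164, 75.8, 133 and 96.2 CPM at steady state, 26.0, 101 and 96.5 CPM at day 1, 86.5, 41.4 and 41.5 CPM at day 4, and 103, 82.4 and 91.0 CPM at day 7. The spread was smallest at day 7, and every day overlapped with steady state. On the log2 scale the changes were -0.65 ± 0.43, -1.06 ± 0.44 and -0.35 ± 0.43 (adjusted p = 0.469, 0.347 and 0.864). With the tag as a covariate, Nfkb2 passed at day 1, at -0.996 on the log2 scale (adjusted p = 0.0416), in a fit that called 1066 of the 19984 genes at day 1, where 469 were called without it.

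Relb, Nfkb2 and Traf3 moved together between libraries of the same condition. Across the 13 libraries Pearson's r of log2 CPM was 0.93 between Relb and Nfkb2, 0.88 between Relb and Traf3, and 0.89 between Nfkb2 and Traf3, and within conditions it was 0.95, 0.90 and 0.92. These libraries share depth and RNA quality between genes, so r is a description. The 3 lowest libraries of each of these genes were day 1 replicate 1 and day 4 replicates 2 and 3. The same held for Tnfsf11 and Ltb, so for 5 of the 10 members, beside 13.1% of the 19984 genes. It also held for Chuk, which encodes the kinase IKKα that acts on p100, and for Traf6 and the canonical inhibitor Tnfaip3. It did not hold for Nfkb1, Rela or Map3k14, which encodes NIK.

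These are the libraries noted above for their share of ribosomal protein genes. The part of that share in the low values was not tested. Leaving out the 3 lowest libraries raises these genes by construction and leaves 1 library at day 4. The log2 fold change was then 0.13 for Relb and -0.42 for Nfkb2 at day 4, and 0.02 and -0.22 at day 1. The genes most like Relb were Grasp (r = 0.99), C2cd2 (0.99) and Pim3 (0.99). Those most like Nfkb2 were Nrp2 (0.98), Ubxn2a (0.97) and Ptprm (0.97), and those most like Traf3 were Kdm7a (0.98), Gpr161 (0.98) and Ppp4r2 (0.97). The genes most like the remaining members had r from 0.80 to 0.94, among them Agpat5, Runx1 and Pde12 for Tnfsf11, Nlrc5, 9530082P21Rik and H2-Q5 for Lta, P2rx4, Grina and Amacr for Ltbr, and Mybpc2 and Heg1 for Tnfrsf11b.

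**Figure D5:**
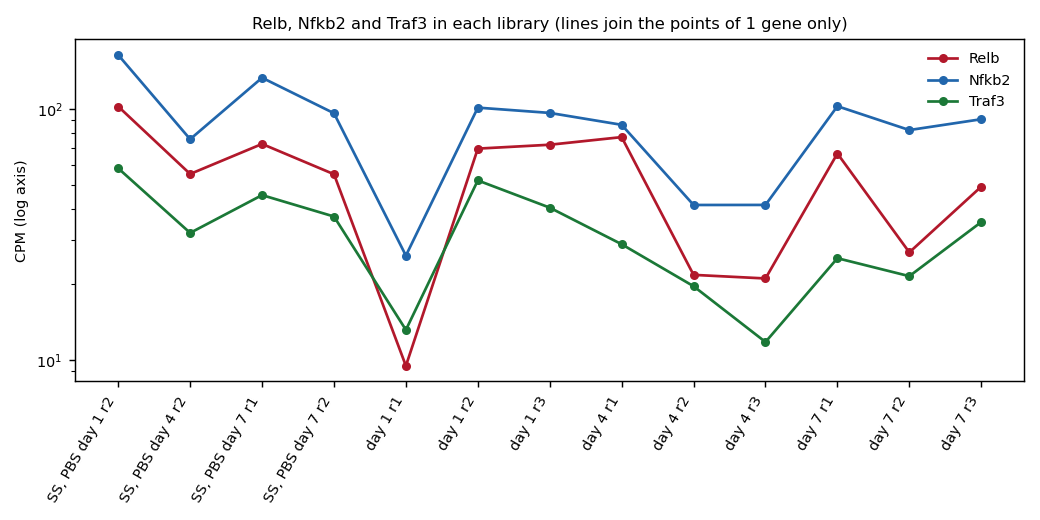
CPM of Relb, Nfkb2 and Traf3 on a log axis in each of the 13 libraries, where SS is steady state, r is the replicate, and lines only join the points of a gene. All 3 genes are lowest in day 1 r1, day 4 r2 and day 4 r3, with Relb at 9.47, 21.8 and 21.1 CPM.

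The other genes of the pathway were read from lists. Beside the counts below, the shares of all genes that passed against steady state were 2.35%, 0.290% and 0.00500% at days 1, 4 and 7. They were 1.43% from day 1 to day 4, 8.13% from day 1 to day 7 and 3.90% from day 4 to day 7. Of 10 noncanonical kinases, adaptors and ubiquitin ligases and of 12 canonical NF-κB subunits, kinases and inhibitors, 0 passed in any of the 6 comparisons between conditions. The noncanonical genes with the smallest p for any condition were Traf5, Traf6, Chuk and Traf1 (adjusted p from 0.248 to 0.460). The log2 fold change of Chuk was -0.98 at day 4 (adjusted p = 0.428). Among the canonical genes they were Tnfaip3, Nfkbiz, Nfkb1 and Ikbkb (adjusted p from 0.112 to 0.294). Tnfaip3, which encodes the inhibitor A20, had log2 fold changes of -1.35, -1.38 and -0.63 at days 1, 4 and 7 against steady state (adjusted p = 0.138, 0.237 and 0.628).

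Among 13 other TNF superfamily ligands, 0 passed against steady state and 2 of 13 fell from day 1 to day 7, Tnfsf10 (TRAIL) and Cd70, with log2 fold changes of -1.46 and -2.88 (adjusted p = 0.0411 and 0.0410). Cd70 had low counts at day 7, with 13, 6 and 5. Cd40lg, the ligand of CD40, did not pass, and its log2 fold change was -3.90 at day 1 (adjusted p = 0.144), with 0.0410 to 3.31 CPM over all libraries. At day 1 it had 3, 1 and 4 counts. Tnfsf8 also had 1 of the 4 smallest p in this list and did not pass (adjusted p = 0.148 for any condition).

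Of 17 other TNF receptors, 1 passed against steady state. Eda2r, a known p53 target, was higher at day 1 by 1.90 on the log2 scale (adjusted p = 0.00745), from 14.8 to 44.9 CPM at steady state to 75.6 to 120 CPM at day 1. It then fell by 1.52 from day 1 to day 7 (log2, adjusted p = 0.0237). Tnfrsf10b, which encodes a TRAIL receptor, fell by 1.58 from day 1 to day 7 (log2, adjusted p = 0.0130). Cd27 and Tnfrsf13b, receptors of lymphocytes, rose over the same days, by 4.68 (adjusted p = 0.0123) and 3.61 (adjusted p = 0.0182), and from day 4 to day 7 by 6.15 and 4.23 (adjusted p = 0.0102 and 0.0187). Cd27 was highest at 134 CPM and Tnfrsf13b at 32.5 CPM, in replicate 2 of day 7, the library with most Ptprc.

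Of 12 known targets of the pathway in stroma, Aire, Fezf2, Ccl21a, Cd80 and Ctss are also among the mTEC markers above. Calls of these genes are the same observations in both lists. Of the 12 targets, 1 passed against steady state. Cxcl13, a B cell chemokine induced through the lymphotoxin β receptor, was higher at day 1 by 2.49 on the log2 scale (adjusted p = 0.00894), from 34.98 to 156 CPM at steady state to 329 to 696 CPM at day 1. From day 1 to day 7, 4 of 12 fell, namely Ccl21a (-1.80, adjusted p = 0.0350), Cd80 (-2.01, adjusted p = 0.0249), Ccl19 (-1.84, adjusted p = 0.0463) and Madcam1 (-3.21, adjusted p = 0.0377), all on the log2 scale. Madcam1 had low counts at day 7, with 17, 16 and 9. Ccl21a, which can lose the reads it shares with near-identical copies, also fell from day 4 to day 7 (-2.25, adjusted p = 0.0245). Aire, the factor of tissue antigen expression in mTECs, had 3.03 to 59.0 CPM at steady state and 0.841 to 2.93 CPM at day 7. Its log2 fold change of -3.63 at day 7 did not pass (adjusted p = 0.117).

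For the other cell types, 0 of 10 cTEC, 0 of 8 endothelial, 0 of 8 B cell, 0 of 10 macrophage and dendritic cell and 0 of 9 tested innate lymphoid and γδ T cell markers passed against steady state, and of 9 fibroblast markers 1 did (Pdgfrb, at day 1). Among the markers that passed between the days after TBI were Ctsl of the cTEC markers between days 1 and 4, Eng, Pax5, Pdgfrb and Dpp4 between days 1 and 7, and Fcer2a between days 4 and 7. The summed B cell markers were 8.10 to 50.4 CPM at steady state and 4.00 to 22.9 CPM at day 7.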

How the data were processed

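CD45- thymic cells of 13 libraries were measured by bulk RNA-seq of polyA RNA. The authors used Trimmomatic 0.38 to trim reads, STAR 2.7.0e for alignment to GRCm38.p5 (GENCODE M12) and featureCounts 1.6.3 for counting. Their deposited values are raw counts per gene and library. A further deposited column, the exonic length, was used for RPKM. By default featureCounts leaves out reads of several places and ignores strand, so near-identical and overlapping genes can lose counts.

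Conditions came from the sample labels. The steady-state columns do not carry the replicate numbers of the labels and were used as a group. The members and lists were chosen with earlier results of these data known. Genes named in the text are the members, the 4 genes of each pathway list with the smallest p for any condition, the 3 genes most like each member (mean of at least 5 CPM), Ptprc, and cell type lists by their sums and calls. Chuk, Traf6, Tnfaip3, Nfkb1, Rela and Map3k14 beside Relb were chosen after their values were seen. So were Epcam, Fezf2, Krt5 and Aire beside Tnfrsf11a, the genes of a list that passed, and the values of Ccl19 and Madcam1. A few genes that the rule names are not reported here.

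All 13 libraries entered 1 fit in edgeR 4.0.16 (R 4.3.3), with TMM normalization, filterByExpr() by condition (minimum count 10, minimum total 15), a term for condition and the quasi-likelihood F-test, with Benjamini-Hochberg adjustment over 19984 genes and a threshold of 0.05. SEs of log2 fold changes were taken from the F statistic. CPM are counts per 1e6 of the TMM-normalized library size, without a prior count, and RPKM divide them by length in kilobases. Correlations used log2 CPM with a prior count of 1. Dixon's ratio was computed at steady state. Symbols and coordinates came from GENCODE M21 (GRCm38), in which 53274 identifiers matched, and upstream windows from RefSeq (GRCm38.p6). The closest pair of libraries differed by a chi-square of 45.2 per degree of freedom over genes, so none was a copy. The fit was tested on simulated counts with a dispersion (spread between libraries beyond counting error) of 0.05. The common dispersion of these data was 0.177, so that test cannot show how the fit does at this spread. Depth is given in the text, and errors over libraries include counting error.

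Alternatives were DESeq2 1.42.0, RLE normalization, no filter, at least 10 counts in every library, only the conditions compared, the tag family as a covariate, the replicate number as a block, each library left out, and pseudocounts of 1 and 0.1 for the ratio. Chosen after seeing the data were the fits without day 7 replicates 2 and 3, without day 1 replicate 1 and day 4 replicates 2 and 3, and with the PBS controls of the same day only. Python 3.11.15 with numpy 2.4.6, pandas 2.3.3 and matplotlib 3.10.9 was used for tables and plots.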

Additional observations from a re-analysis of the deposited data

Results flagged for a closer look

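The level of Ltb differed between days after TBI by a test of the difference itself. From day 1 to day 7 the log2 fold change was 3.44, and from day 4 to day 7 it was 4.10. In both cases the libraries of the 2 days did not overlap, and all 3 of day 7 were higher. Replicates 2 and 3 of day 7 had the most Ptprc (606 and 224 CPM), and without them, with 1 library left at day 7, the values were 0.91 and 1.52. In the 4 steady-state libraries, none of the 10 members and not the ratio of Tnfsf11 to Tnfrsf11b had a library far enough from the others by Dixon's ratio (critical value 0.829). The nearest to it was Tnfrsf11b, with a ratio of 0.805.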

How the results depend on the processing

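Counts of members that passed changed as follows, with 0 in each comparison with steady state and 1 in the rest with a day 7 library as reported. With the tag as a covariate the count was 1 (Nfkb2) at day 1 against steady state and 2 (Ltb and Nfkb2) for day 7 against day 1, day 7 against day 4 and any condition. That fit called 1066, 1416, 854 and 1179 genes in these comparisons, where 469, 1625, 779 and 1330 were called as reported. DESeq2 gave 1 at day 4 (Ltb), 1 at day 7 (Tnfrsf11a) and 2 for any condition (both), where it called 3665 of 23884 genes. No filter gave 1 at day 7 (Tnfrsf11a) and 2 for any condition, where 627 and 2252 of 37877 genes were called. For day 7 against days 1 and 4 the count was 0 with only the conditions compared, without day 7 replicates 2 and 3, and without day 1 replicate 1 and day 4 replicates 2 and 3, and the last 2 settings, which leave 1 library at day 7 and at day 4, also gave 0 for any condition. With the replicate block it was 0 for both as well, and Ltb had log2 fold changes of 3.24 and 3.53 (adjusted p = 0.0730 and 0.125). Same-numbered libraries did not deviate together (mean r -0.18, others 0.08). Most of them differ in tag, so this cannot tell whether the numbers pair libraries. Leaving out each library gave 0 to 1 for these 3 counts, 0 for any condition without day 4 replicate 2, day 4 replicate 3 or day 7 replicate 2, and 0 throughout for the other 4. The causes were not tested. Over all genes, DESeq2 called 1354, 620 and 1093 at days 1, 4 and 7 against steady state, where 469, 58 and 1 were called as reported.

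Of 32 log2 fold changes, 13 kept their direction in every alternative. Leaving out each library gave -0.96 to 0.28 for Tnfrsf11a, -1.86 to 0.22 for Tnfsf11, -0.75 to 0.31 for Cd40, -0.014 to 0.47 for Ltbr and -0.68 to 0.10 for Traf3 at day 1, -0.57 to 0.54 for Cd40 at day 4, and -0.15 to 0.55 for Tnfrsf11b and -0.15 to 0.23 for Ltbr at day 7. Without day 1 replicate 1 and day 4 replicates 2 and 3, the lowest libraries of these genes, direction turned for Tnfsf11 (0.25), Relb (0.018) and Traf3 (0.12) at day 1 and for Relb (0.13) at day 4. Without day 7 replicates 2 and 3 it turned for Ltb (-0.92) at day 7. With the tag as a covariate it turned at day 7 for Tnfsf11 (0.62), Relb (0.16) and Nfkb2 (0.27). With the PBS controls of the same day only, which are 1 library at days 1 and 4 and 2 at day 7, it turned for Lta at day 1 (-0.015), at day 4 for Tnfrsf11a (0.28), Tnfrsf11b (-0.042), Cd40 (1.37), Ltbr (-0.11) and Lta (1.99), and at day 7 for Tnfsf11 (1.27). The log2 ratio of Tnfsf11 to Tnfrsf11b ran from -2.21 to 0.23 at day 1, -3.39 to -2.04 at day 4 and -0.67 to 0.52 at day 7 with a library left out, and was 0.00037 at day 7 with a pseudocount of 0.1. Tnfsf11 and Lta could not be fitted with at least 10 counts in every library. Depth limits these 2 ligands most, with 4 to 191 and 6 to 70 counts per library.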
